A study of Mus musculus with 6 samples.

Results

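Glutathione S-transferases (GSTs) are enzymes that join the tripeptide glutathione to reactive, electrophilic molecules and so make them water soluble. The soluble enzymes fall into classes by sequence, among them alpha, mu, pi and theta, and their genes lie in clusters of related copies. The liver carries much of the GST activity of the body, where the enzymes clear drugs, aflatoxin epoxides and products of lipid peroxidation, and several GST genes respond to the transcription factors Nrf2, CAR and PXR. The 10 members described here were chosen from their values in the sham and VSG livers compared below, and were then found by name among the 55385 genes of the count table. They are *Gsta1*, *Gsta2*, *Gsta3* and *Gsta4* of the alpha class, *Gstm1*, *Gstm2* and *Gstm3* of the mu class, *Gstp1* of the pi class, and *Gstt1* and *Gstt2* of the theta class. All of them were found in the table, and all 10 passed the filter on low counts.

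The livers came from male wild-type C57BL/6 mice that were 6 to 8 weeks old when a high-fat diet began. After 10 weeks on that diet the mice underwent either vertical sleeve gastrectomy (VSG), which removes a large part of the stomach, or a sham operation, and both groups then stayed on the high-fat diet for another 12 weeks. No lean or unoperated group is part of the comparison, so both groups share the diet and an operation. Poly(A) RNA was taken from about 40 mg of liver per mouse, with 3 sham livers (sham 1, 2 and 3) and 3 VSG livers (VSG 4, 5 and 6) and 1 mouse per library.

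Total counts ran from 22804397 to 24191778 per library. Levels are given as CPM, in which a gene's counts are scaled to the library's total with TMM factors (0.897 to 1.15), and a count of 3 was taken as the floor of detection in a library. The tissue label was checked against 8 hepatocyte markers, which summed to between 76566 and 122179 CPM in the sham livers and between 60700 and 95347 CPM after VSG, and none of the 8 passed the edgeR test between the groups. Other lists did differ: all 9 neutrophil markers were higher in VSG (summed level 2.51 to 14.4 CPM in the sham livers and 131 to 1789 CPM after VSG, lowest in VSG 5), as were 3 of 7 Kupffer cell and macrophage markers (341 to 722 CPM and 727 to 2112 CPM) and all 10 acute phase genes (9373 to 10091 CPM and 34101 to 82619 CPM). Stellate markers had 1 of 6 lower, and their summed level did not overlap between the groups (589 to 889 CPM in the sham livers and 280 to 549 CPM after VSG). Bile duct markers had 1 of 5 higher (57.6 to 253 CPM and 73.4 to 200 CPM), and the endothelial, lymphocyte, erythroid, pericentral and male-biased lists had none that passed. Of all genes tested, 14.7% passed and 39.7% had groups that did not overlap. The stellate and bile duct values are therefore not read as shifts. No marker was at 0 in a whole group. The part of these shifts in the GST values was not tested, and in bulk tissue fewer cells of a type and less RNA per cell cannot be told apart.

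Because the members were chosen from this same contrast, their values are given as a description with no test. Levels of 9 members were lower in all 3 VSG livers than in any sham liver, and *Gstp1* was higher in all 3. Of all 14454 genes tested, 39.7% had groups that did not overlap (19.8% lower and 19.8% higher in VSG). In the fit across all genes 9 of the 10 members passed an adjusted p of 0.05 with edgeR, 8 lower and 1 higher, where 14.7% of all genes did (7.87% lower and 6.79% higher). The choice of members used this contrast, so nothing is read from these counts. The member that did not pass was *Gstt2*. The median log2 fold change of the members was -2.17, beside 0.03 over all genes tested, and it was also -2.17 with *Gsta1* at its bound. Without sham 3 or without VSG 6 the number of members past the threshold fell to 4, while the number over all genes fell from 2118 to 159 and 210.

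**Figure D1:**
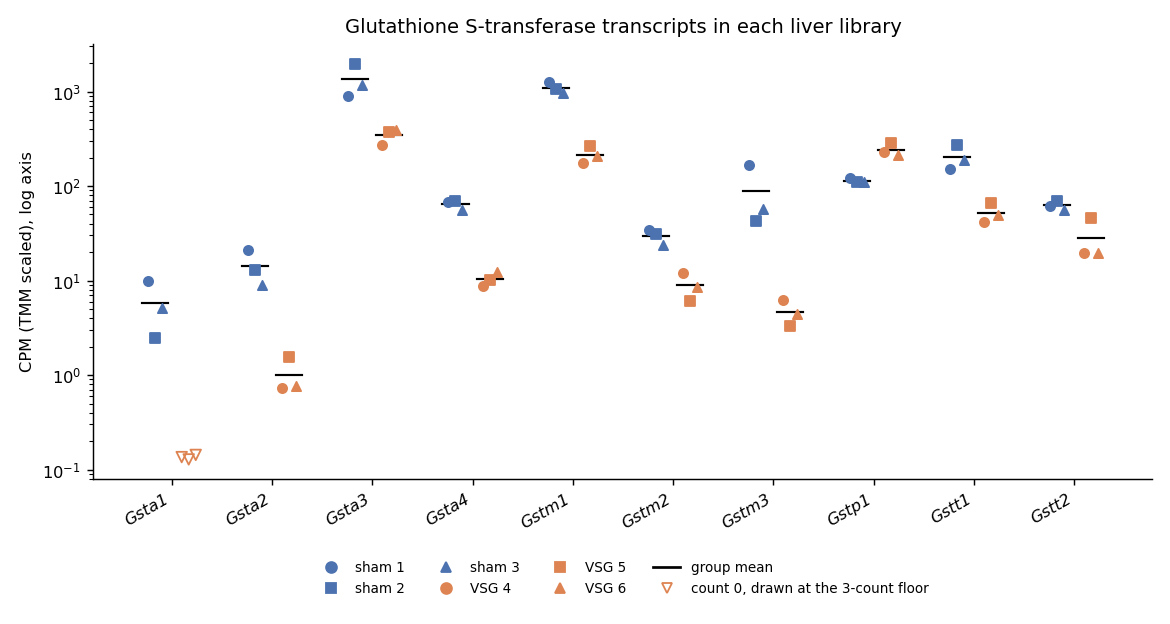
CPM (TMM scaled, log axis) of each of the 10 GST genes in the 3 sham (blue) and 3 VSG (orange) libraries, 1 point per mouse, with black lines at the group means. The VSG points lie below all sham points for 9 genes and above them for Gstp1, and the 3 VSG libraries with no Gsta1 count are drawn as open triangles at the floor of 3 counts.

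In the alpha class, levels in sham livers ran from 2.46 CPM (*Gsta1*, sham 2) to 1966 CPM (*Gsta3*, sham 2). *Gsta1* (chr9:78230656-78242684, plus strand), *Gsta2* (chr9:78331018-78355788, minus strand) and *Gsta4* (chr9:78182774-78209349, plus strand) share a cluster on chromosome 9 (GENCODE M21, GRCm38), and *Gsta3* lies apart at chr1:21240589-21265661 (plus strand). *Gsta3*, an enzyme known for conjugating aflatoxin epoxide in mice, was the most abundant of the 4, at 906, 1966 and 1181 CPM in sham 1, 2 and 3 and at 269, 374 and 387 CPM in VSG 4, 5 and 6. The lowest sham liver was thus well above the highest VSG liver, although sham 2 stood apart from the other sham livers. The means were 1351 ± 550 and 343 ± 65.1 CPM (SD, n = 3 each), a log2 fold change of -1.98 (SE 0.33), or 3.93-fold lower in VSG.

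*Gsta4*, whose product removes 4-hydroxynonenal from lipid peroxidation, was at 67.7, 70.1 and 55.8 CPM in the sham livers and at 8.72, 10.2 and 12.2 CPM in the VSG livers. Both groups were tight, and this gene had the smallest SE among the alpha members. Its log2 fold change was -2.63 (SE 0.16), or 6.20-fold lower in VSG, with means of 64.6 ± 7.66 and 10.4 ± 1.77 CPM (SD, n = 3 each).

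*Gsta2* was at 21.1, 12.9 and 8.96 CPM in the sham livers and at 0.723, 1.54 and 0.762 CPM in VSG. The VSG values rested on 16, 36 and 16 counts. The log2 fold change was -3.81 (SE 0.44), or 14.1-fold lower in VSG.

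*Gsta1* had 267, 54 and 135 counts in the sham livers and 0 counts in each VSG liver. In CPM the sham values were 9.85, 2.46 and 5.12, so sham 1 was 4.0-fold above sham 2. Set against the floor of 3 counts in each VSG library, *Gsta1* was at least 42.9-fold lower in VSG, and at least 28.0-fold lower without sham 1. The floor covers counting error only.

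*Gsta1*, *Gsta2* and the neighbouring copy *Gm3776* are hard to separate by short reads. Their coding sequences were 97.6% identical between *Gsta1* and *Gsta2* and 99.7% identical between *Gsta1* and *Gm3776*. Of the 50-base windows of *Gsta1* transcripts, 90.5% also occurred in another gene, 75.7% occurred in *Gm3776*, and 49.8% of the windows of *Gsta2* occurred in another gene. How reads that match several places were counted is not stated in the sources used here, so the split among these copies is uncertain. *Gsta3* and *Gsta4* shared 0.273% and 0% of their windows, and no member's exons overlapped those of another gene.

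The likeness of the copies extends upstream of their starts, which is why these stretches are shown. The 3 sequences below are read 5′ to 3′ on each gene's strand, from RefSeq promoter windows on GRCm38.p6, and capitals mark bases that differ from *Gsta1* in a pairwise alignment. They end before the RefSeq starts and lie at chr9:78230529-78230648 (plus strand) for *Gsta1*, chr9:78257002-78257121 (plus strand) for *Gm3776* and chr9:78347171-78347288 (minus strand) for *Gsta2*, the last inside the longer GENCODE M21 span of that gene but outside its exons.
Gsta1: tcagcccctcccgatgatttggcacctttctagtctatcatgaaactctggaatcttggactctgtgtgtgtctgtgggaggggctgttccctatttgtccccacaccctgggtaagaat
Gm3776: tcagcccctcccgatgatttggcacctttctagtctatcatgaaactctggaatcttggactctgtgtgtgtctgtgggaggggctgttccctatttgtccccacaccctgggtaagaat
Gsta2: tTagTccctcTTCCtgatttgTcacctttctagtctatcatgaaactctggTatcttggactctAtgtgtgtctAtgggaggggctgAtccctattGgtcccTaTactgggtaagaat
Across these stretches *Gm3776* was 100% identical to *Gsta1* over 120 bases, and *Gsta2* differed at 14 of 118 bases. The *Gsta2* stretch also lacks bases of the *Gsta1* stretch near its end, a gap that the capitals do not show and the 14 does not count. *Gm3776*, a gene model beside *Gsta1*, had 114, 23 and 48 counts in sham 1, 2 and 3 and 1, 0 and 0 counts in VSG, so sham 1 was the highest and sham 2 the lowest sham liver for both *Gsta1* and *Gm3776*. The ratio of the summed counts of *Gm3776* over the summed TMM-scaled library sizes, VSG over sham, was 0.00612 (95% exact counting interval 0.000154 to 0.0345), and its adjusted p was 0.0120 with edgeR. The ratio was 0.0102 without sham 1 and 0.00945 without VSG 5. Without VSG 4, which held the only VSG count, *Gm3776* was at least 17.4-fold lower against the floor of 3 counts in each remaining VSG library. It did not pass without sham 3 (edgeR adjusted p = 0.0525) or without VSG 6 (adjusted p = 0.0619).

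In the mu class, *Gstm1*, which encodes a main mu class enzyme of the mouse liver, was at 1270, 1063 and 970 CPM in the sham livers and 174, 264 and 207 CPM after VSG. The means were 1101 ± 154 and 215 ± 45.2 CPM (SD, n = 3 each), and the log2 fold change was -2.36 (SE 0.21), or 5.12-fold lower in VSG. The spread within each group was small beside the gap between the groups.

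*Gstm3* was at 167, 43.0 and 56.7 CPM in the sham livers and at 6.19, 3.33 and 4.43 CPM in VSG. Sham 1 was 3.88-fold above sham 2, so the sham mean of 88.8 ± 67.8 CPM (SD, n = 3) leaned on 1 liver. The log2 fold change was -4.26 (SE 0.60) over all 6 libraries and -3.43 without sham 1.

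*Gstm2* was at 33.9, 31.1 and 23.6 CPM in the sham livers and at 12.0, 6.15 and 8.48 CPM in VSG. Its log2 fold change was -1.73 (SE 0.26), or 3.33-fold lower in VSG. VSG 4 was the highest VSG liver for both *Gstm2* and *Gstm3* but the lowest for *Gstm1*, so the mu members did not keep 1 order across the VSG mice.

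The 3 mu members stand side by side on chromosome 3 (GRCm38), *Gstm3* at chr3:107963696-107969283, *Gstm2* at chr3:107981702-107986453 and *Gstm1* at chr3:108012255-108017973, all on the minus strand. The whole cluster holds 7 *Gstm* genes in 149 kb. At its far end *Gstm4* was lower in VSG (log2 fold change -1.38 with an SE of 0.14, edgeR adjusted p = 0.00553), and *Gstm6*, next to *Gstm3* on the other side, was lower as well (-1.21 with an SE of 0.11, adjusted p = 0.00371). *Gstm7*, whose coding sequence was 82.6% identical to that of *Gstm1*, was at 28.7 ± 4.14 CPM in the sham livers and 29.7 ± 2.39 CPM in VSG (SD, n = 3 each; log2 fold change 0.05 with an SE of 0.13, adjusted p = 0.791), and its sign turned under other scaling (-0.07 with total counts). *Gstm5*, at the other end, had a log2 fold change of -0.46 (SE 0.16, adjusted p = 0.0973). The 7 neighbours thus had log2 fold changes from -4.26 to 0.05. Coding sequences of *Gstm1* were 85.9% identical to *Gstm2* and 89.4% to *Gstm3*, and 18.9% of the 50-base windows of *Gstm1*, 5.65% of those of *Gstm2* and 28.8% of those of *Gstm3* occurred in another gene.

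**Figure D2:**
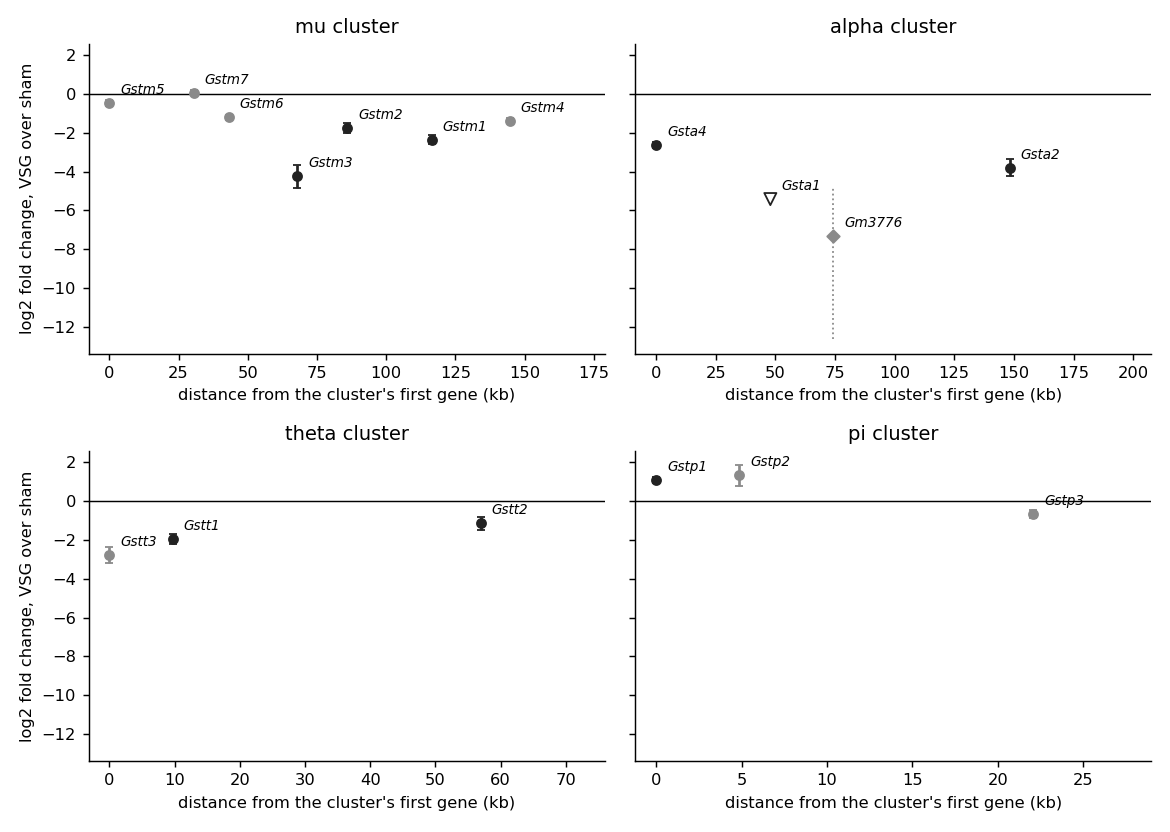
Log2 fold change (VSG over sham) of GST genes against distance along their clusters (kb from the first gene's lowest coordinate) for the mu, alpha, theta and pi clusters, members in black and other genes in grey, with SE bars. The open triangle is the bound for Gsta1, the diamond with the dotted line is the count ratio of Gm3776 with its 95% counting interval, and neighbours in the mu cluster range from Gstm7 at 0.05 to Gstm3 at -4.26.

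*Gstp1* went the other way. The pi class enzyme, which is also known as a regulator of stress kinase signalling, was at 121, 111 and 111 CPM in the sham livers and 229, 283 and 215 CPM after VSG. The sham livers differed by only 1.09-fold between the highest and the lowest, the least of all members. The means were 114 ± 5.39 and 242 ± 36.1 CPM (SD, n = 3 each), with a log2 fold change of 1.08 (SE 0.14), or 2.12-fold higher in VSG. VSG 5 had the highest *Gstp1* level and, among the VSG livers, the lowest sum of neutrophil markers (131 CPM, against 1789 CPM in VSG 4 and 804 CPM in VSG 6). The Kupffer cell and macrophage sum was also lowest in VSG 5 among the VSG livers (727 CPM). Among the sham livers the order was the reverse. Sham 1 had the highest *Gstp1* level there, and also the highest neutrophil sum (14.4 CPM) and Kupffer cell and macrophage sum (722 CPM). The part of these sums in the *Gstp1* values was not tested.

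*Gstp1* lies at chr19:4035407-4037985 (minus strand), and its neighbour *Gstp2* begins 4.88 kb further along. Their coding sequences were 98.1% identical, and 33.7% of the windows of *Gstp1* occurred in *Gstp2*. *Gstp2* was at 1.66, 1.41 and 0.645 CPM in the sham livers and at 4.79, 1.41 and 3.15 CPM in VSG (log2 fold change 1.33 with an SE of 0.52, edgeR adjusted p = 0.13). VSG 5, the highest VSG liver for *Gstp1*, was the lowest for *Gstp2*. *Gstp3*, 72.7% identical to *Gstp1* in its coding sequence, had a log2 fold change of -0.67 (SE 0.20, adjusted p = 0.0704).

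In the theta class, whose members lie on chromosome 10 (*Gstt1* at chr10:75783813-75798584 and *Gstt2* at chr10:75831114-75837424, both on the minus strand), *Gstt1*, which acts on small halogenated hydrocarbons, was at 150, 268 and 187 CPM in the sham livers and at 41.2, 65.5 and 49.8 CPM in VSG. The log2 fold change was -1.95 (SE 0.27), or 3.87-fold lower in VSG. As with *Gsta3*, sham 2 was the highest and sham 1 the lowest sham liver. *Gstt2* was at 62.1, 69.5 and 55.4 CPM in the sham livers and at 19.3, 45.7 and 19.5 CPM in VSG. VSG 5 lay much nearer to the sham livers than the other VSG livers did, though still below them. The log2 fold change of *Gstt2* was -1.14 (SE 0.34) with all libraries and -1.70 without VSG 5. The neighbour *Gstt3* was lower in VSG as well (43.7 ± 23.4 and 6.37 ± 1.41 CPM, SD, n = 3 each; log2 fold change -2.77 with an SE of 0.39, edgeR adjusted p = 0.0115). Part of *Gstt3* (12.2% of its windows) is shared with the overlapping model *Gm20441*.

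Within the sham group the members split by which liver was highest. Sham 1 was highest for *Gsta1*, *Gsta2*, *Gstm1*, *Gstm2*, *Gstm3* and *Gstp1*, and sham 2 for *Gsta3*, *Gsta4*, *Gstt1* and *Gstt2*. Sham 2 also had the highest sum of hepatocyte markers (122179 CPM) and of pericentral markers (16597 CPM, against 6597 CPM in sham 1 and 9957 CPM in sham 3). In the VSG group, VSG 4 was lowest for 6 members (*Gsta2*, *Gsta3*, *Gsta4*, *Gstm1*, *Gstt1* and *Gstt2*) and had the lowest pericentral sum (5030 CPM) and the highest neutrophil sum. *Cyp2e1*, which is in both the hepatocyte and the pericentral list, made up most of the pericentral sum (12837 CPM in sham 2 and 3801 CPM in VSG 4). The part of these sums in the spread of the members was not tested.

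Levels of different genes were compared per kilobase of exon, as FPKM. In sham livers the order was *Gstm1* (748 ± 104 FPKM), *Gsta3* (311 ± 127), *Gstt1* (132 ± 39.7), *Gstp1* (73.9 ± 3.48), *Gstm3* (67.7 ± 51.7), *Gsta4* (51.0 ± 6.05), *Gstm2* (17.6 ± 3.18), *Gstt2* (15 ± 1.69), *Gsta2* (12.2 ± 5.28) and *Gsta1* (6.08 ± 3.91; SD, n = 3). The first 4 stood apart from each other in every sham liver, while the ranges of *Gstp1* and *Gstm3*, of *Gstm3* and *Gsta4*, and of each neighbouring pair from *Gstm2* down overlapped. In VSG livers *Gstp1* (157 ± 23.3 FPKM) and *Gstm1* (146 ± 30.7 FPKM) came first with overlapping ranges. *Gsta3* (79.1 ± 15 FPKM) and *Gstt1* (34.2 ± 8.08 FPKM) followed, and from *Gsta4* (8.22 ± 1.40 FPKM) through *Gstt2* and *Gstm2* to *Gstm3* (3.55 ± 1.10 FPKM) each neighbouring pair overlapped. *Gsta2* (0.856 ± 0.390 FPKM) and *Gsta1* (0) came last.

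Summed over the 10 members, GST reads took 0.316% ± 0.0241 of a sham library and 0.0866% ± 0.0163 of a VSG library (SD, n = 3 each). Per library the shares were 0.322%, 0.336% and 0.289% in sham and 0.0738%, 0.105% and 0.0812% in VSG. Counts were also summed over whole classes, 20 genes in all, so that reads split among copies of a class were counted together. The log2 fold change was -2.02 (SE 0.31) for 6 alpha genes, -2.16 (SE 0.20) for 7 mu genes, 0.96 (SE 0.14) for 3 pi genes and -1.83 (SE 0.29) for 4 theta genes. *Gsta3* made up most of the alpha sum (sham means of 1351 CPM for the gene and 1438 CPM for the sum). The alpha sum therefore does not describe the split among *Gsta1*, *Gsta2* and *Gm3776*. Reads dropped for matching several places would be missing from every sum.

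The make-up of the pool moved with these differences. Of the summed FPKM of the 20 genes, the mu class held 58.9% ± 8.55 in sham and 39.6% ± 0.348 in VSG, the alpha class 24.8% ± 6.36 and 17.7% ± 2.66, and the theta class 10.3% ± 2.55 and 8.44% ± 1.18 (SD, n = 3 each). The pi class held 6.06% ± 0.515 in sham and 34.3% ± 3.15 in VSG. *Gstp1* alone was 4.87%, 4.29% and 5.34% of the pool in the sham livers and 33.4%, 31.9% and 28.9% in the VSG livers. *Gstm1* was 48.7% ± 5.46 in sham and 29.1% ± 2.27 in VSG. The ranges of the groups did not overlap for the mu and pi shares, and they did for the alpha and theta shares.

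**Figure D3:**
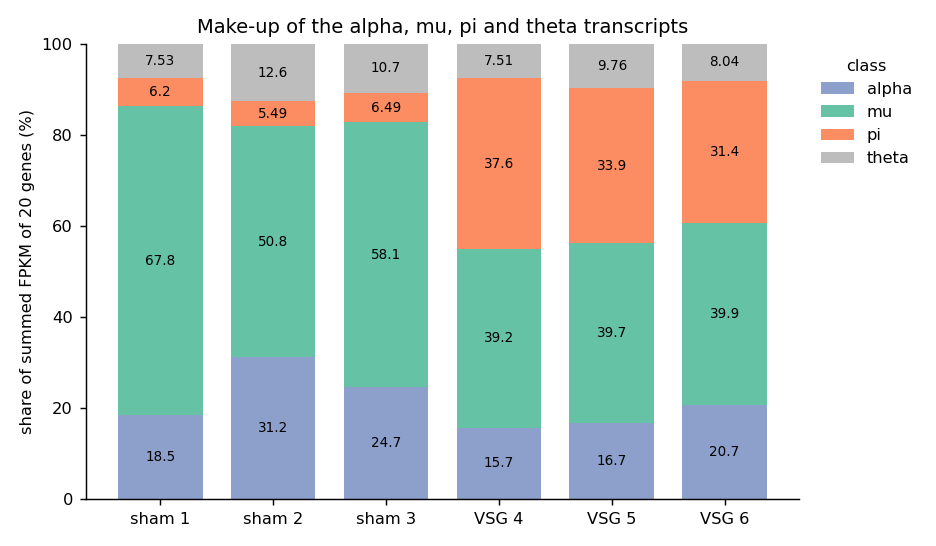
Share of the alpha, mu, pi and theta classes in the summed FPKM of 20 GST genes (percent, stacked to 100) in each of the 6 libraries, with each share printed in its block. The pi block is between 5.49% and 6.49% in the sham libraries and between 31.4% and 37.6% in the VSG libraries.

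The promoter windows of the members were searched for the core of the antioxidant response element, the site bound by Nrf2 with a small Maf protein. The letters TGACNNNGC were sought on both strands of RefSeq windows from 250 bases before to 50 after each start (GRCm38.p6). Windows were found for 8 members. One of the 8 held a match, *Gsta3*, beside 12.4% of all 32851 windows of that length. Some genes had more than 1 window (*Gstm1* had 2), so a share of genes and a share of windows are not the same measure. *Gsta4* and *Gstt2* were not searched. Among the 21 genes of the wider family with a window, 3 held a match, *Gstm5*, *Gstm7* and *Mgst1*. The letters TGAGTCA, a core bound by AP-1 factors, were added after the windows had been read and were found in 1 of the 8 members, *Gstp1*, and in *Gstp2*, *Gstm5* and *Mgst2*, beside 5.20% of all windows. No match of 1 motif overlapped a match of the other. The stretches around these matches are shown because *Gsta3* was the most abundant alpha member and *Gstp1* was the member that was higher. Capitals mark the matched letters, which begin 121 bases before the start of *Gsta3*, 74 before that of *Gstp1* and 89 before that of *Gstp2*, at chr1:21240424-21240480 (plus strand), chr19:4037972-4038026 (minus strand) and chr19:4042296-4042350 (minus strand).
Gsta3: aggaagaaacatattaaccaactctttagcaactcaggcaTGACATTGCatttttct
Gstp1: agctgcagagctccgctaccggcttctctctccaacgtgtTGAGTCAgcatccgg
Gstp2: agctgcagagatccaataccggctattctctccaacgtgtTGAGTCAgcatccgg
GENCODE M21 starts *Gstp1* a little before RefSeq does, so that 14 bases of its stretch, part of the match among them, lie in the GENCODE first exon. All 55 bases of the *Gstp2* stretch lie inside the longer GENCODE M21 span of *Gstp2* (chr19:4040285-4046023, minus strand), so the 89 bases count from the RefSeq start alone. In the *Gstp1* and *Gstp2* stretches the letters TGAGTCAGC differ from TGACNNNGC at 1 letter, and so were not counted as a match to it. Wider forms of the antioxidant response element were not searched. The matches describe the letters in the windows and were not tested for binding.

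The wider family held 24 further names, the remaining cytosolic GSTs, the kappa GST *Gstk1* and the membrane-bound MAPEG proteins. Of these, 22 were in the table and 18 had enough counts to test, and 7 passed (38.9%, beside 14.7% of all genes), 6 lower and 1 higher in VSG. This list and those below were chosen with earlier results of these data known, so their shares are a description. Of the windows of *Gm3776*, 83.0% occurred in the member *Gsta1*, so its call cannot be told apart from that of the member. Besides *Gm3776*, *Gstm4*, *Gstm6* and *Gstt3*, the genes that fell were *Gstk1*, the mitochondrial and peroxisomal kappa GST (95.4 ± 10.6 and 53.9 ± 7.5 CPM; log2 fold change -0.82 with an SE of 0.14, edgeR adjusted p = 0.0171), and *Mgst3*, a microsomal GST. *Mgst3* was at 16.1, 15.6 and 21 CPM in the sham livers and at 1.94, 3.03 and 1.33 CPM in VSG (log2 fold change -3.05 with an SE of 0.30, edgeR adjusted p = 0.00553). *Mgst2*, which can make leukotriene C4, rose from 5, 0 and 3 counts in sham to 67, 10 and 35 counts in VSG (log2 fold change 3.96 with an SE of 0.95, edgeR adjusted p = 0.0390), lowest in VSG 5 like the neutrophil markers, and it did not pass in 6 of 11 alternatives. Its log2 fold change ran from 3.25 without VSG 4 to 4.68 without sham 1. The number that passed was 4 without sham 3 and 3 without VSG 6. *Gstk1* did not pass without sham 3 (edgeR adjusted p = 0.0818) or without VSG 6 (adjusted p = 0.0744). *Gstt3* did not pass without VSG 6 (adjusted p = 0.0623).

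The other 11 did not pass, although *Alox5ap* and *Gstp3* passed in 3 of 12 alternatives each (lowest adjusted p 0.000997 and 0.0224, both with DESeq2) and *Gstp2* in 1 of 12 (without VSG 5, edgeR adjusted p = 0.0434). *Mgst1*, the most abundant transcript of the family in CPM and in FPKM, was at 3055 ± 454 CPM in the sham livers and 2388 ± 316 CPM after VSG (SD, n = 3 each; log2 fold change -0.36 with an SE of 0.22, edgeR adjusted p = 0.293). *Gstz1*, which also acts in tyrosine breakdown, had a log2 fold change of -0.50 (SE 0.20, adjusted p = 0.13), and *Gsto1*, the omega class thioltransferase, one of -0.28 (SE 0.14, adjusted p = 0.213). The 5-lipoxygenase activating protein gene *Alox5ap* had a log2 fold change of 2.28 (SE 0.61, adjusted p = 0.0513), with 24.9 CPM in VSG 4 and 4.91 CPM in VSG 5, and one of 1.48 without VSG 4. The prostaglandin synthases *Hpgds* and *Ptges* had log2 fold changes of 0.09 (adjusted p = 0.880) and -0.57 (adjusted p = 0.379), and *Gstcd* had one of -0.22 (adjusted p = 0.352). The sign of *Hpgds* turned with total counts (-0.09).

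**Figure D4:**
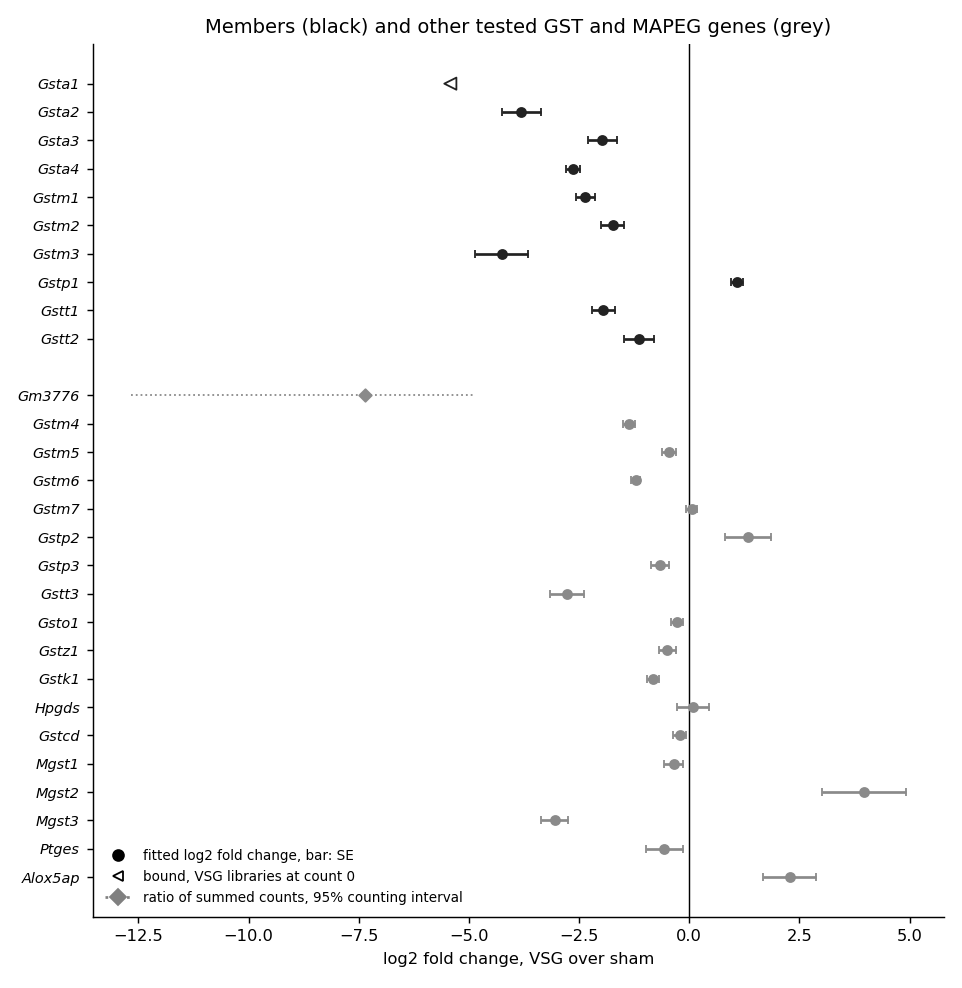
Log2 fold change (VSG over sham) of the 10 members (black) and of the 18 other tested GST and MAPEG genes (grey), with bars of 1 SE, an open triangle for the bound of Gsta1 and a diamond with its 95% counting interval for Gm3776. Gstp1 is the only member to the right of 0, and among the other genes Mgst2 lies farthest to the right, at 3.96.

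Genes that make and recycle glutathione, the substrate of the members, formed a list of 17. Of 15 tested, 1 passed, *Gclc*, the catalytic subunit of the rate-limiting ligase (470 ± 23.5 and 238 ± 73.7 CPM, SD, n = 3 each; log2 fold change -0.98 with an SE of 0.23, edgeR adjusted p = 0.0369). The 6.67% that passed is below the 14.7% of all genes, and with any of 5 single libraries left out no gene of the list passed. Its partner subunit *Gclm* had a log2 fold change of -0.11 (adjusted p = 0.649), and *Slc25a39*, a mitochondrial glutathione carrier, and *Oplah* of the glutathione cycle had -0.22 (adjusted p = 0.291) and -0.23 (adjusted p = 0.511).

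Among enzymes that use glutathione for other reactions, 5 of 15 passed (33.3%, beside 14.7% of all genes), all lower in VSG. They were the lipid peroxidase *Gpx4* (log2 fold change -1.17, edgeR adjusted p = 0.00809), the glutaredoxins *Glrx* (-0.71, adjusted p = 0.0369), *Glrx3* (-0.45, adjusted p = 0.0427) and *Glrx5* (-1.09, adjusted p = 0.0130), and the S-formylglutathione hydrolase *Esd* (-0.79, adjusted p = 0.0296). The others with the highest mean CPM, which is not corrected for gene length, were *Gpx1* (-0.35, adjusted p = 0.158), *Prdx6* (-0.67, adjusted p = 0.0636) and *Adh5* (-0.29, adjusted p = 0.299). None of the list passed without VSG 6 and 1 passed without sham 3.

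Of 13 genes for conjugate export and mercapturate formation, 2 passed (15.4%, close to the 14.7% of all genes), the export pump *Abcc3* (557 ± 100 and 179 ± 21.8 CPM; log2 fold change -1.64 with an SE of 0.19, edgeR adjusted p = 0.00725) and the mercapturate deacylase *Acy3* (-0.94 with an SE of 0.20, adjusted p = 0.0309). The canalicular pump *Abcc2*, which carries glutathione conjugates into bile, had a log2 fold change of -0.61 (adjusted p = 0.116), *Anpep* one of -0.40 (adjusted p = 0.22) and *Abcg2* one of -0.63 (adjusted p = 0.129).

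The list of regulators and xenobiotic response genes had 9 of 25 past the threshold (36.0%, beside 14.7% of all genes), 7 lower and 2 higher. The Nrf2 target *Nqo1* fell (log2 fold change -1.42, edgeR adjusted p = 0.00429), as did *Srxn1* (-1.21, adjusted p = 0.0133), the epoxide hydrolase *Ephx1* (-1.32, adjusted p = 0.00809), the carbonyl reductase *Cbr1* (-1.38, adjusted p = 0.00645) and the small Maf gene *Maff* (-1.98, adjusted p = 0.0217). *Nr1i2*, which encodes PXR, fell by 0.88 on the log2 scale (edgeR adjusted p = 0.0322), and *Cyp3a11*, a PXR target, was at 1796 ± 326 CPM in the sham livers and 263 ± 190 CPM after VSG (log2 fold change -2.77, adjusted p = 0.0216). The heme oxygenase gene *Hmox1*, also an Nrf2 target and a gene of macrophages, rose by 2.11 on the log2 scale (edgeR adjusted p = 0.0163) and was highest in VSG 4, and *Bach1*, a repressor at Nrf2 sites, rose by 0.45 (adjusted p = 0.0435). *Nr1i3*, which encodes CAR, had a log2 fold change of -1.22 (adjusted p = 0.265), *Hnf4a* one of 0.37 (adjusted p = 0.194) and *Rxra* one of 0.10 (adjusted p = 0.689). *Nfe2l2*, which encodes Nrf2, was chosen after its values were seen, and it had a log2 fold change of -0.42 (adjusted p = 0.139). Without sham 3 and without VSG 6 the list had 2 past the threshold.

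The medians of the lists were -0.48 for the wider GST family, -0.14 for synthesis and turnover, -0.45 for other glutathione-dependent enzymes, -0.37 for export and -0.46 for regulators, beside 0.03 for all genes and -2.17 for the members.

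**Figure D5:**
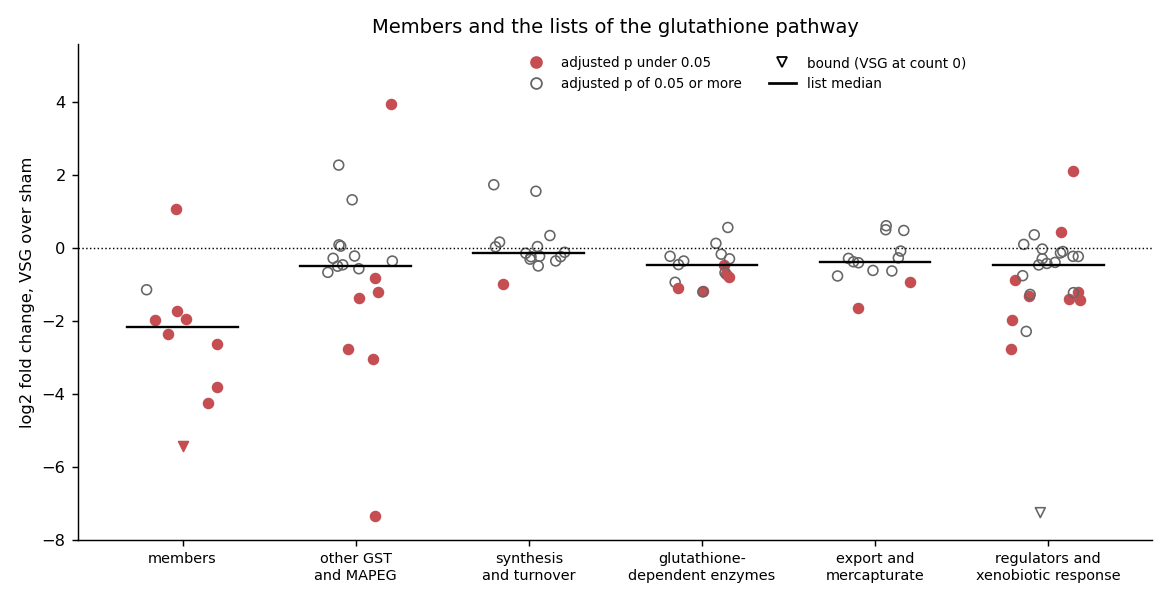
Log2 fold change (VSG over sham) of the tested genes in the members and 5 lists of the glutathione pathway, 1 point per gene (filled: adjusted p under 0.05 in the edgeR fit; triangles: bounds for genes with no count in VSG; Gm3776 at its count ratio), with black lines at the list medians. The member line lies at -2.17 and those of the other lists between -0.48 and -0.14.

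Genes whose pattern across the 6 livers was most like the log2 of the members' summed CPM were sought among 9941 genes outside the GST lists with a mean of at least 5 CPM. The 5 closest were *Rheb* (Pearson r = 0.997), *Klc4* (0.997), *Mycbp* (0.996), *Cript* (0.994) and *Copg2* (0.993). Their log2 fold changes ran from -0.52 (*Mycbp*) to -0.27 (*Rheb*). These values are a description over 6 libraries in 2 groups, and 11.4% of the genes compared had an r above 0.9.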

How the data were processed

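Poly(A) RNA from 6 mouse livers (3 sham, 3 VSG) was sequenced as strand-specific libraries. The authors deposited raw read counts per gene. Per the submitters' processing notes, reads were checked by FastQC 0.10.1, aligned by STAR 2.6.0 to mm10 and counted by featureCounts 2.0.3. The annotation release, strand option and handling of multi-mapping reads are not given in the sources used here. Of 55385 gene identifiers, 54487 equalled GENCODE M21 with version and 55144 without it, and symbols came from there. The deposited exon length entered only FPKM.

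Counts were tested with edgeR 4.0.16 (R 4.3.3; filterByExpr with minimum count 10 and minimum total 15, TMM, glmQLFit, glmQLFTest, group only), with Benjamini-Hochberg adjustment over 14454 genes and a threshold of 0.05. Every adjusted p in the text comes from this fit unless another tool or a left-out library is named. SE is the log2 fold change divided by the square root of F. On counts simulated for this comparison over 14454 genes, 100% of 200 genes changed by 2 on the log2 scale were recovered. The simulation gave every gene the same spread between replicates, had no outlier livers and changed only well-counted genes. It therefore does not show what share of changed genes would be recovered at the spread of the real livers. Replicates differed by more than counting noise (chi-square per degree of freedom at least 27.5). Intervals and floors cover counting error only, since reads are not independent molecules. With 3 against 3 no exact permutation test can go below p = 0.1, so none was used.

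The members and gene lists were chosen with earlier results of these data known, so member values are a description. Named genes were all members, every tested gene of the wider family, the genes of each further list past the threshold with up to 3 others of highest mean CPM, and the 5 genes most like the members' sum. Class sums replaced their genes in the same fit. Coding identity was taken from pairwise alignment of 1 GENCODE M21 transcript per gene (Biopython 1.88), and shared sequence from 50-base windows of all transcripts. Promoters came from RefSeq.

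Alternatives were RLE factors, total counts, DESeq2 1.42.0, limma-voom (limma 3.58.1), no low-count filter, at least 10 counts in every library, and leaving out each library.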

Additional observations from a re-analysis of the deposited data

How the results depend on the processing

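No paired analysis was possible because the sham livers (1 to 3) and VSG livers (4 to 6) share no replicate number. Genes past the threshold numbered 2118 in the edgeR fit, 3288 with DESeq2 and 159 to 2732 when each library was left out. Scaling by total counts put 75.7% of calls lower in VSG, beside 53.7% with TMM factors, and moved the median of all genes from 0.03 to -0.11 on the log2 scale. All 9 members lower in VSG, *Gstp1* and the 4 class sums kept their direction under each of the 12 alternatives that could be run for them. When each library was left out, 4 to 10 members passed, and 3 to 9 of the wider family, 0 to 3 for synthesis and turnover, 0 to 5 for glutathione-dependent enzymes, 1 to 2 for export and 2 to 8 for regulators. Synthesis and turnover had 3 with DESeq2 and 2 with no filter. *Gsta2*, *Gsta4* and *Gstm1* passed in every alternative. *Gsta1*, *Gsta3*, *Gstm2* and *Gstt1* did not pass without sham 3 or without VSG 6, *Gstm3* without VSG 6 and *Gstp1* without sham 3, and *Gstt2* passed in 3 of 12. *Gstm7* turned to -0.0748 with total counts and ran from -0.0537 to 0.158 when each library was left out, below 0 without sham 3 or VSG 4. *Hpgds* turned to -0.0927 with total counts and ran from -0.212 to 0.495, below 0 without sham 2 or VSG 4. The causes were not tested. Depth limits *Gsta1*, *Gsta2*, *Gm3776* and *Mgst2*, which rest on few counts in 1 group.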

Other observations

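A pair of processed pseudogenes named after GST genes was looked at after their values were seen. *Gstm2-ps1*, which holds 14.1% of the 50-base windows of *Gstm1*, held 30, 28 and 32 counts in the sham livers (1, 2 and 3) and 4, 5 and 4 counts after VSG (4, 5 and 6). *Gstp-ps* numbered 125, 90 and 133 reads in the sham livers and 181, 251 and 169 after VSG, highest in VSG 5 like *Gstp1*. Whether reads of the members were placed on these pseudogenes was not tested.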
